A study of Mus musculus with 7 samples.

Results

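The genes described here are 8 long protein-coding genes of the mouse whose bodies carry many binding regions of 2 transcription factors, LEF1 and TCF1, when mapped in CD8 T cells of naive phenotype: Sgms1, Arhgef3, Ankrd11, Prkch, Thada, Akap13, Wwox and Dock10. They are 8 of 21883 protein-coding genes and were chosen by their number of regions, so those counts are given as a description, with no test. A peak was assigned to a gene when it touched the gene body or 10 kb on either side (GRCm38.p6, RefSeq), and overlapping peaks of the 6 libraries were merged into regions. Of 38231 regions in the series, 313 lay at these genes.

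Binding was measured by CUT&RUN, a method that tethers micrococcal nuclease to an antibody and sequences the short fragments it releases near the antibody's target. All libraries came from spleen CD8 T cells of WT genotype carrying the transgenic P14 T cell receptor, sorted as CD8+, Ly5.1+, CD44- and CD62L+, the surface pattern of cells that have not met antigen. There were 3 libraries with an antibody to LEF1 and 3 with an antibody to TCF1. A negative input control from another gate (CD8+, Ly5.1-, CD44+) and the H3K4me3 positive control of the protocol were left out. Whether replicates stem from different mice is not stated in the labels. A p-value here therefore speaks only of the spread among the 6 libraries, and that spread may be technical.

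LEF1 and TCF1 are HMG-box proteins that bind a short CTTTG-containing DNA motif, bend the DNA there and act with beta-catenin in Wnt signalling and without it in T cells. They are known for T cell commitment in the thymus and for keeping mature CD8 T cells naive or stem-like. The 8 genes encode proteins of several kinds. Arhgef3, Akap13 and Dock10 are guanine nucleotide exchange factors, and Akap13 also anchors protein kinase A. Prkch is protein kinase C eta. Sgms1 makes sphingomyelin from ceramide at the Golgi. Ankrd11 is an ankyrin-repeat chromatin cofactor, Thada belongs to the machinery of tRNA ribose methylation, and Wwox is a WW-domain oxidoreductase whose gene spans a common fragile site.

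The peak lists held 23704 to 37646 peaks for LEF1 and 11423 to 25623 for TCF1, and the 8 genes took 0.821% to 0.937% of each list. Read totals were not given, so list length is the only measure of depth used here. TCF1 replicate 3 had the shortest list and LEF1 replicate 2 the longest, and this difference touches every count below. All 7 CD8 T cell marker genes examined (Cd3e, Cd3d, Cd3g, Cd8a, Cd8b1, Cd2 and Lck) had regions of both factors, against 3 of 6 B cell, 2 of 5 myeloid and 0 of 2 NK cell markers. Over all protein-coding genes, 52.6% had a region with LEF1 peaks in at least 2 libraries, and 49.8% had one with TCF1 peaks in at least 2. The share of the B cell markers was thus near that of all genes. Binding at a gene is not its expression, so these counts describe the binding only.

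The sequence just before an annotated start was available for 6 of the 8 genes, as 250 bases ending at the base before the start (RefSeq, GRCm38.p6); Prkch and Wwox had no entry. The 4 windows printed were picked after their values were seen: 3 have a peak in all 6 libraries and a full motif, and 1 was bound as widely without it. Among the windows not printed, those of Ankrd11 (chr8:123042285-123042534) and of another Arhgef3 start (chr14:27335787-27336036) were also bound without the full motif in the window. Each of them had a peak in all 6 libraries. Capitals mark CTTTGAT on either strand, read as ATCAAAG when it lies on the other strand. This 7-base motif holds the shorter CTTTG, and it occurs in 3.21% of 32851 such windows of the genome's RefSeq starts, whereas CTTTG alone occurs in 48.6%. The windows are Akap13 (chr7:75455284-75455533, plus strand), the internal start of Dock10 (chr1:80665353-80665602, minus strand), Thada (chr17:84466209-84466458, minus strand) and an internal start of Arhgef3 (chr14:27237760-27238009, plus strand).
Akap13: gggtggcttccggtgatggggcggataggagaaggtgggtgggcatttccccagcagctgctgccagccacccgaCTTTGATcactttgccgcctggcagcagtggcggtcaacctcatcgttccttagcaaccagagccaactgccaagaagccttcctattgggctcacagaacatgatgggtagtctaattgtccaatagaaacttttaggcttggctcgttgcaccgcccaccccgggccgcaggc
Dock10 internal start: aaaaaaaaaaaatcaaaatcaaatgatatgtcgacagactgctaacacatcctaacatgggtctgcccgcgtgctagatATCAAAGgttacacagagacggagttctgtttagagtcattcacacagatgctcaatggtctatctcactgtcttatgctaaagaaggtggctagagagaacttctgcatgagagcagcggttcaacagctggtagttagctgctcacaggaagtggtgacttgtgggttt
Thada: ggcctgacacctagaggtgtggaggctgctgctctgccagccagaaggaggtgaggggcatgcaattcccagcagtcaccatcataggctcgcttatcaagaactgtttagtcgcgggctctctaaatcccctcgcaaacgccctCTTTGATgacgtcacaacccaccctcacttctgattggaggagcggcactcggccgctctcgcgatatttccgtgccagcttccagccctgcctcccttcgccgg
Arhgef3 internal start: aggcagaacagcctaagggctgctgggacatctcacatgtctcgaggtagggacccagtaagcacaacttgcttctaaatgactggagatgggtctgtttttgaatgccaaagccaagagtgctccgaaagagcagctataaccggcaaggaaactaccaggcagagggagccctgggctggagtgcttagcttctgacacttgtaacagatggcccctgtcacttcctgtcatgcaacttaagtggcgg

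The Akap13 window carries its motif 175 bases before the start, and the peaks over it had fold enrichments of 39.2 to 134 in the 6 libraries. Fold enrichment is the authors' own value per peak, the signal over local background, and is used here only to describe and rank peaks within a list. The Dock10 internal window carries the motif 171 bases before the start under peaks of 25.3 to 73.6. The Thada window carries it 105 bases before the start under much weaker peaks, 5.14 to 12.0. The Arhgef3 window holds no CTTTGAT and only 1 CTTTG, yet its peaks reached 23.4 to 63.6. Another Arhgef3 start, with its window at chr14:27361139-27361388, has CTTTGAT 16 bases before the start and a peak in 0 libraries. Among these few windows, peaks thus occurred with and without the motif, and the motif with and without peaks.

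Binding at the 8 genes was mostly away from their ends. Of the 313 regions, 12 lay within 1 kb of an end of a protein-coding gene, 3.83% (95% exact binomial interval 2.00 to 6.60%), against 23.3% of all regions in the series. In the 275 other protein-coding genes of at least 100 kb with at least 10 regions the share was 6.60%. Intervals on shares cover counting error only. The gene table used here has no exons, so exons and introns were not told apart. Akap13 was the one gene of the 8 whose strongest region sat on its start.

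Sgms1 (chr19:32122727-32389885, minus strand, 267 kb) had 48 regions, the second-highest number among 2428 protein-coding genes of at least 100 kb. The LEF1 libraries had 35, 47 and 32 peaks there in replicates 1, 2 and 3, and the TCF1 libraries had 25, 24 and 13. Every LEF1 library thus listed more peaks than every TCF1 library, as was the case at 6.10% of the 13006 genes with a peak (the reverse at 0.0461%). Of the 8 genes, Akap13 and Thada also met this rule on the peaks as listed, which carry the difference in list length. A region is called held by a factor when it contains peaks of 2 or 3 libraries of that factor. LEF1 held 36 of the 48 regions and TCF1 held 22, all of them also held by LEF1. The strongest region, chr19:32186070-32187237, lay 63.9 kb from the lower-coordinate end and was among the strongest peaks of each list. Its fold enrichment was 87.9, 110 and 83.0 in the LEF1 libraries and 87.9, 81.7 and 44.4 in the TCF1 libraries. Of its 4 annotated starts, 1 had a peak in the 250-base window, at chr19:32211014-32211263, in the 3 LEF1 libraries and at 6.56 to 10.1.

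Arhgef3 (chr14:27114461-27403916, plus strand, 289 kb) had 45 regions, 35 held by LEF1 and 25 by both factors. The LEF1 libraries had 35, 45 and 28 peaks and the TCF1 libraries 30, 24 and 12, so LEF1 replicate 3 fell below TCF1 replicate 1. Its binding lay toward the end of the gene: 30 of 45 regions were downstream of its midpoint, and the first 69.3 kb of the body had none. The strongest region, chr14:27229201-27230033, had fold enrichments of 54.6, 76.2 and 47.1 for LEF1 and 57.2, 52.4 and 28.4 for TCF1. The next strong region downstream was the one over the internal start printed above.

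Akap13 (chr7:75455526-75754609, plus strand, 299 kb) had 38 regions, of which LEF1 held 29 and both factors 24. Peaks numbered 32, 40 and 31 in the LEF1 libraries and 26, 30 and 14 in the TCF1 libraries, and every LEF1 library listed more than every TCF1 library. The region on its start, chr7:75454980-75455902, had fold enrichments of 102, 134 and 83.6 for LEF1 and 98.8, 64.1 and 39.2 for TCF1. That is the highest LEF1 value at any of the 8 genes.

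Dock10 (chr1:80501068-80758765, minus strand, 258 kb) had 30 regions, 25 held by LEF1 and 18 by both. Peaks numbered 27, 28 and 23 for LEF1 and 23, 19 and 10 for TCF1, so that LEF1 replicate 3 and TCF1 replicate 1 were level. All 30 regions lay on the start side of the gene, and a stretch of 146 kb at the other end, 52.7% of the gene with its flanks, held none. The strongest region, chr1:80755193-80756295, lay just inside the main start, with 58.8, 92.1 and 60.6 for LEF1 and 62.9, 52.9 and 32.3 for TCF1. The window at the main start itself had a peak in 5 libraries at 4.22 to 8.03, well below that of the internal start.

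Prkch (chr12:73584796-73778185, 193 kb) had 39 regions, 31 held by LEF1 and 23 by both. Peaks numbered 32, 40 and 26 for LEF1 and 28, 26 and 17 for TCF1, and the groups overlapped. The regions crowded at the lower-coordinate end, 28 of 39 on that side of the midpoint, and a stretch of 67.5 kb at the other end, its 10 kb flank included, held none. Its strongest region, chr12:73604396-73605621, had 56.3, 82.8 and 54.6 for LEF1 and 50.7, 49.2 and 25.04 for TCF1. A protein-coding gene known only as LOC115488016 overlaps that end of Prkch, and 10 of the 39 regions lay within 10 kb of it, so they cannot be assigned to Prkch alone.

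Ankrd11 (chr8:122883321-123042284, minus strand, 159 kb) was the shortest and, in the full lists, the most densely bound. It had 42 regions or 23.5 per 100 kb, the fourth-highest density among the long genes. Peaks numbered 30, 43 and 24 for LEF1 and 27, 20 and 11 for TCF1, and LEF1 replicate 3 fell below TCF1 replicate 1. LEF1 held 30 regions, TCF1 17 and both 16, and the 1 region of the 8 genes held by TCF1 alone was here. Its strongest region by mean rank, chr8:123036910-123037853, had 38.0, 49.9 and 35.8 for LEF1 and 39.2, 36.2 and 15.8 for TCF1. It was the weakest of the 8 leading regions. Another region, chr8:123032619-123034812, was higher in every library, with 39.6, 58.3 and 39.1 for LEF1 and 53.3, 44.5 and 21.4 for TCF1. It also holds weaker peaks, and over all its peaks its mean rank percentile was 17.4, against 9.42. In TCF1 replicate 1 its 53.3 was above the 50.7 of the leading region of Prkch. Many moderate regions, rather than a few high ones, made up its count.

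Thada (chr17:84190056-84466246, minus strand, 276 kb) had 38 regions, 31 held by LEF1 and 22 by both. Peaks numbered 30, 39 and 28 for LEF1 and 26, 24 and 16 for TCF1, and every LEF1 library listed more than every TCF1 library. Its strongest region, chr17:84329831-84331255, lay in the middle of the gene, with 87.7, 124 and 79.2 for LEF1 and 89.5, 75.8 and 42.9 for TCF1. Zfp36l2, an mRNA-decay protein gene, lies 2.11 kb beyond the downstream end of Thada, and 7 of the 38 regions lay within 10 kb of it. Within the Thada body alone there were 32 regions.

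Wwox (chr8:114439635-115352712, 913 kb) had 33 regions, but over its great length this was 3.54 per 100 kb, rank 421 among the 2428 long genes. By density it stood above their upper quartile of 2.498 and far below the other 7 members, which had 10.8 to 23.5. It is therefore a gene with many regions, not a densely bound one. Peaks numbered 30, 34 and 24 for LEF1 and 26, 20 and 13 for TCF1, with LEF1 replicate 3 below TCF1 replicate 1. LEF1 held 28 regions and both factors 20. Its strongest region, chr8:115189617-115190488, had 88.2, 110 and 72.2 for LEF1 and 75.4, 77.6 and 43.7 for TCF1. In LEF1 replicates 1 and 2 this was about level with the best region of Sgms1, and in the other libraries it was lower.

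**Figure D1:**
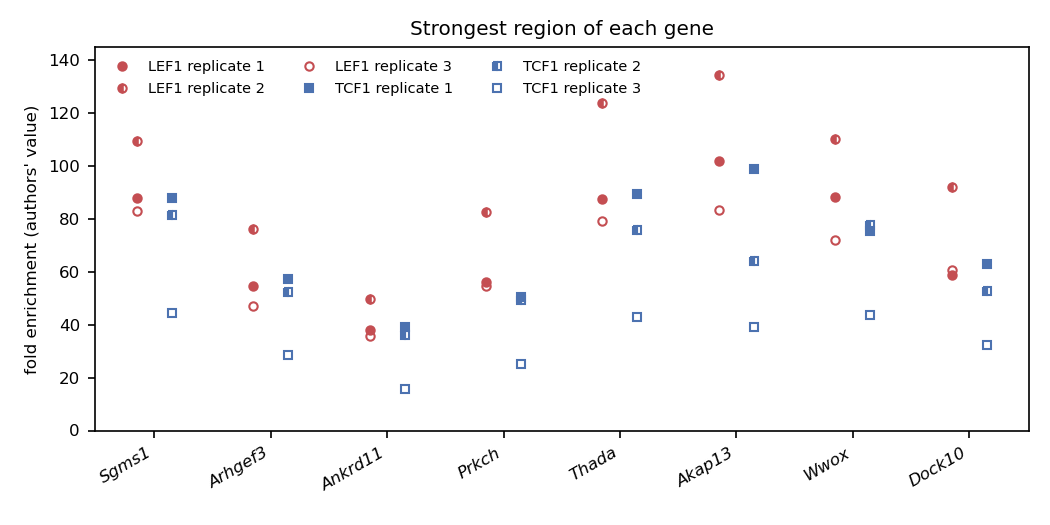
Fold enrichment (authors' value, linear axis from 0) of the strongest region of each gene, 1 point per library, LEF1 as circles and TCF1 as squares. The leading regions of Sgms1, Thada, Akap13 and Wwox reached 110 to 134 in LEF1 replicate 2, and that of Ankrd11 reached 49.9. Another Ankrd11 region, not drawn because its mean rank was lower, reached 58.3 there. TCF1 replicate 3 was lowest at every gene.

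The choice of list length changed which gene led. Lists of equal size kept the 11423 peaks of each library with the highest −log10 q, ties going to the higher fold enrichment. In them the merged regions numbered 21 at Arhgef3, 18 at Prkch, Akap13 and Wwox, 17 at Sgms1 and 16 at Thada. Dock10 had 13 and Ankrd11 had 11. Ankrd11 thus went from 42 regions to 11 and Sgms1 from 48 to 17. Prkch, with 18 regions over 193 kb, was then more densely bound than Ankrd11, with 11 over 159 kb. In these equal lists each Wwox LEF1 library had 18 peaks, against 16, 16 and 13 for TCF1.

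Spacing along the genes was tight in most members. The median gap between midpoints of neighbouring regions was 2.44 kb at Ankrd11, 2.58 kb at Dock10, 2.80 kb at Prkch, 2.85 kb at Arhgef3, 2.90 kb at Thada and 3.05 kb at Sgms1. It was 4.21 kb at Wwox and 4.77 kb at Akap13. The 275 other long genes with at least 10 regions had a median of 5.20 kb with quartiles of 3.35 and 8.31 kb. Since the 8 genes were chosen for many regions, short gaps follow in part from the choice and carry no test.

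The evenness of the gaps was also described. The coefficient of variation of the gaps (their SD over their mean, higher when regions bunch) was 0.882 at Prkch, the most even, and 2.42 at Wwox, the most bunched. The remaining 6 lay between 1.07 and 1.40, and the 275 other genes had a median of 1.25 with quartiles of 1.03 and 1.51. Wwox ranked 2 of 283 genes by this measure and Prkch 260. The median over the 8 members, 1.27, was close to that of the other genes, so their median gave no sign of more bunching. The measure covers only gaps between regions and leaves out empty ends, such as those of Dock10 and Prkch.

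**Figure D2:**
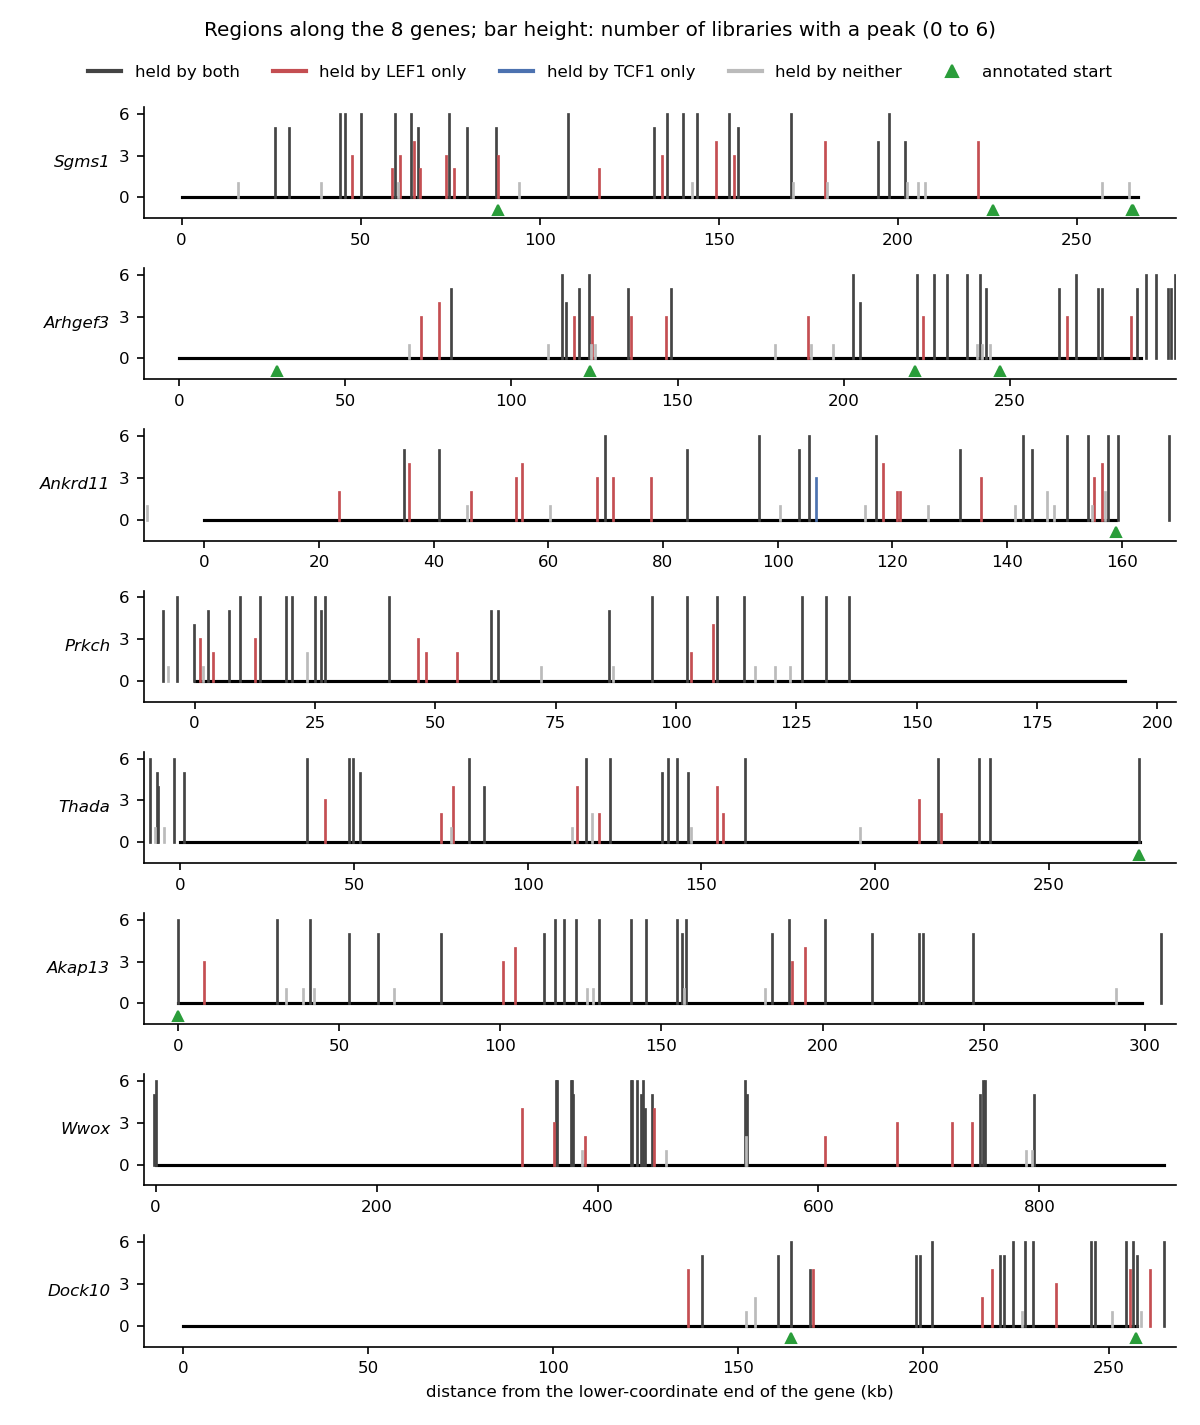
Regions along each gene, with the distance from the lower-coordinate end in kb on the horizontal axis and the number of libraries with a peak (0 to 6) as bar height; colours show which factor holds the region and triangles mark annotated starts (none available for Prkch and Wwox). The empty left side of Dock10, the empty 332 kb of Wwox and the crowding at the left end of Prkch stand out.

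Regions were joined into clusters where gaps were at most 10 kb. Ankrd11 had the largest, 27 of its 42 regions over 71.6 kb on the start side. Sgms1 followed with 22 of 48 over 68.1 kb, from 26.1 to 94.2 kb above its lower end, which is its downstream end. Dock10 had 19 of 30 over 49.0 kb around its main start. Prkch had 18 over 33.7 kb from 6.52 kb outside its lower end inwards.

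The other 4 genes were bound in smaller groups. Akap13 had 15 regions over 57.0 kb in mid-gene and Arhgef3 had 12 over 34.8 kb running out of its downstream end. At Thada and Wwox the largest cluster held 8 regions, over 23.7 and 21.0 kb. The Wwox body had no region between 0.186 and 332 kb from its lower end, 35.6% of the gene with its flanks, and the 8-region cluster came only at 430 kb. The longest stretch without regions, flanks included, was 79.3 kb at Arhgef3, 44.3 kb at Akap13, 43.0 kb at Thada, 34.5 kb at Sgms1 and 33.5 kb at Ankrd11.

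**Figure D3:**
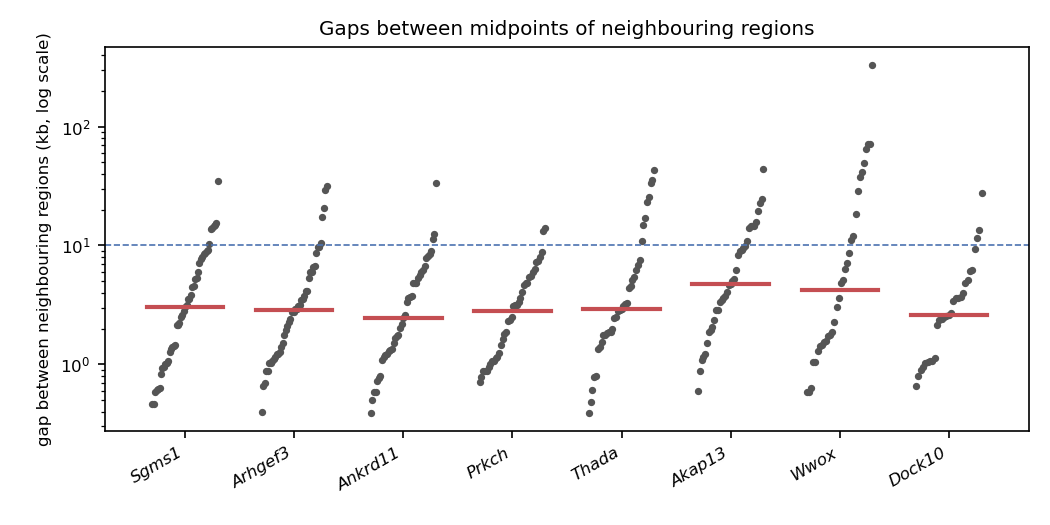
Gaps between midpoints of neighbouring regions of each gene in kb on a log axis, 1 point per gap; red bars are medians and the dashed line is the 10 kb used to join clusters. Medians lie between 2.44 and 4.77 kb, and Wwox alone has a gap of 332 kb.

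Most regions that LEF1 held at these genes were also held by TCF1, and almost none went the other way. Of 245 LEF1-held regions, TCF1 held 170, 69.4% (95% exact binomial interval 63.2 to 75.1%), against 74.7% over all regions and 73.1% (71.6 to 74.6%) in the 275 other long genes. The share was lowest at Ankrd11, 53.3%, and highest at Akap13, 82.8%, with the 6 other genes between 61.1 and 74.2%. The intervals of those extremes, 34.3 to 71.7% and 64.2 to 94.2%, overlapped. Of 171 regions held by TCF1, LEF1 held 170. The share changed with the setting: it was 40.65% without TCF1 replicate 1, 41.06% without TCF1 replicate 2 and 69.39% without TCF1 replicate 3. With 1 TCF1 library left out, the rule needs a peak in both others. Without TCF1 replicate 1 or 2 it thus needs a peak in TCF1 replicate 3, the shortest list. In lists of equal size the share was 88.3%.

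The regions that both factors held were wider and higher than those LEF1 held alone. Their median width was 604.5 bp, against 302 bp for the 75 held by LEF1 alone. A region must pass the authors' peak threshold in more libraries to count as shared, so this is in part set by the rule. The median fold enrichment in the 3 LEF1 libraries was 15.2 to 23.3 for shared regions and 5.96 to 8.42 for the others. Of the 75, 46 lay within 5 kb of a shared region (61.3%, median distance 3.52 kb). Over all regions in the series that share was 41.4%, and in the 275 other long genes 51.7%. Nearness rises with the density of regions, for which the 8 genes were chosen, so these shares are a description. Sgms1 had 11 of 14 and Dock10 6 of 7 that close, while Wwox had 2 of 8, with a median distance of 18.2 kb, and Akap13 1 of 5.

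A peak in all 3 LEF1 libraries and in no TCF1 library was found at 17 of the 313 regions, 5.43%, where 3.14% of all regions met this rule. Sgms1 had 5, Arhgef3 4, Akap13 and Wwox 2 each and the other 4 genes 1 each. The strongest was at Arhgef3, chr14:27187152-27187390, with 13.6, 15.9 and 12.2 in the LEF1 libraries. At Thada, chr17:84231444-84231763 had 9.52, 15.8 and 7.36. All these were low peaks beside the leading regions of the same genes. A peak in all 3 TCF1 libraries and in no LEF1 library occurred at 0 of the 313 regions and at 0.0183% of all regions.

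To compare the factors per gene, peaks were counted per 1000 peaks of the same list. At Sgms1 the LEF1 libraries had 1.29 ± 0.0544 (SD, n = 3) and the TCF1 libraries 1.05 ± 0.0813 (n = 3), with no overlap, a difference of 0.234 (exact permutation test, two-sided, p = 0.1). At Arhgef3 the values were 1.21 ± 0.0449 and 1.09 ± 0.0702, again without overlap, a difference of 0.124 (exact permutation test, p = 0.1). With 3 libraries against 3, p cannot go below 0.1, and the Benjamini-Hochberg adjusted p over 13006 genes was 0.635 for both.

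Those 2 of the 8 genes had every LEF1 library above every TCF1 library, and 0 had the reverse. Among all 13006 genes with a peak, 3.38% had LEF1 higher and 4.87% TCF1 higher in this way. Among the 187 genes with a mean of at least 10 peaks, which are nearer to these in count, the shares were 9.09% and 4.28%. Neither gene passed a test after adjustment. limma over those 187 genes gave Sgms1 a log2 difference of 0.28 (SE 0.147, adjusted p = 0.587) and called 0 genes (8 in each direction at unadjusted p under 0.05, none of the 8 members). Only Sgms1 remained without flanks or with 50 kb flanks. Only Arhgef3 remained with peaks of −log10 q of at least 5, or when covered bases replaced peaks, a measure by which 6.86% of genes had LEF1 higher and 13.1% TCF1 higher.

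At the other 6 genes the groups overlapped. Ankrd11 had 1.08 ± 0.0650 for LEF1 and 0.963 ± 0.0902 for TCF1 (exact permutation test, n = 3 each, p = 0.2). Prkch had 1.11 ± 0.0476 and 1.24 ± 0.217, with TCF1 replicate 3 at 1.49 far above the other 2 TCF1 libraries, which had 1.09 and 1.14. Thada likewise had 1.40 in TCF1 replicate 3 against 1.01 and 1.05, and means of 1.10 for LEF1 and 1.15 for TCF1. The LEF1 and TCF1 means were 1.18 and 1.18 at Akap13, 1.00 and 1.01 at Wwox, and 0.897 and 0.868 at Dock10. Apart from Ankrd11, these differences were smaller than the SD of the TCF1 libraries.

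In lists of equal size the pattern was partly another. Sgms1 had 15, 15 and 16 peaks for LEF1 and 13 in each TCF1 library, and Wwox had the 18 against 13 to 16 given above, so 2 genes again had LEF1 higher without overlap (exact permutation test, n = 3 each, p = 0.1 for both). In that setting 2.60% of 8763 genes had LEF1 higher and 6.01% TCF1 higher. Arhgef3 overlapped there, with 13, 15 and 16 for LEF1 and 14, 13 and 12 for TCF1. Sgms1 was the one gene of the 8 without overlap in both counts.

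**Figure D4:**
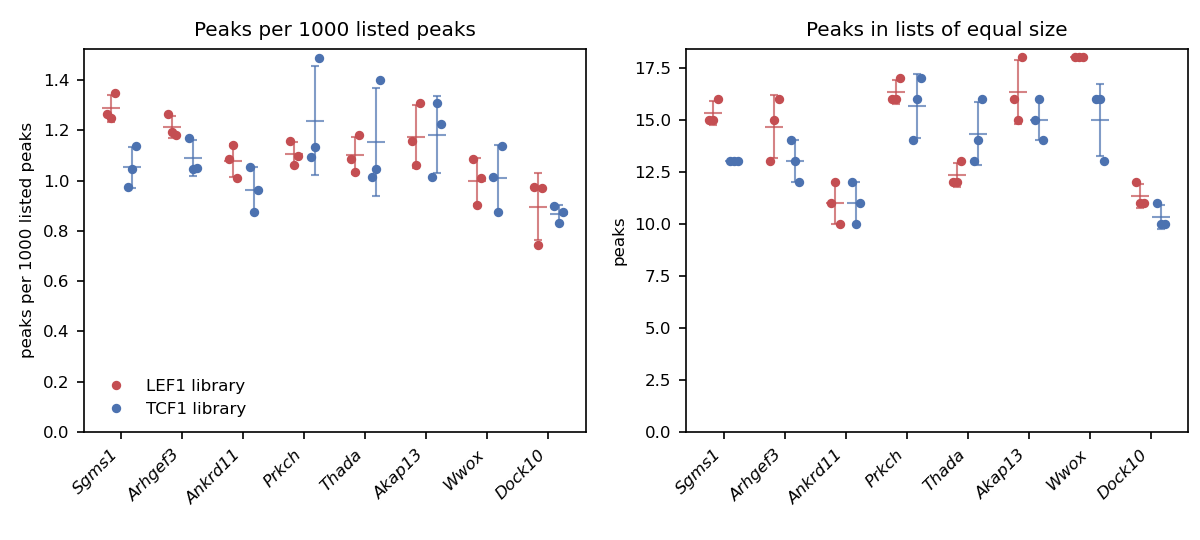
Peaks touching each gene per 1000 listed peaks (left) and in lists of the 11423 peaks of highest −log10 q (right). There is 1 point per library, with the mean and SD of the 3 libraries of each factor. The LEF1 points lie above the TCF1 points without overlap at Sgms1 in both panels, at Arhgef3 on the left only and at Wwox on the right only.

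Ranks within the lists were compared next, for regions shared by all libraries. Of the 81 member regions with a peak in all 6 equal lists, 15 ranked higher in every LEF1 list than in every TCF1 list and 7 the reverse, where 16.0% and 16.8% of 8176 such regions did so. In the other 59 the groups overlapped. The median percentile by fold enrichment (0 is the highest peak) was 22.6 in the LEF1 lists and 27.2 in the TCF1 lists. It was lower for LEF1 at each of the 8 genes. The medians over the 8176 regions are not given, so this cannot be called particular to the 8 genes. Over all peaks at the 8 genes in the full lists the order was the opposite, with medians of 42.3 to 47.8 for LEF1 and 35.9 to 40.6 for TCF1. In the equal lists the gap was widest at Akap13, 18.4 against 29.0, and at Thada, 19.4 against 29.6. It was narrow at Arhgef3, 18.5 against 18.9. The 15 regions ranked higher in every LEF1 list were 3 each at Sgms1, Prkch, Thada and Akap13, 2 at Dock10 and 1 at Ankrd11. Akap13 had one at chr7:75572009-75572815, which stood at percentiles 12.4, 13.6 and 11.8 of the LEF1 lists and 28.2, 39.3 and 30.5 of the TCF1 lists. The region over the Ankrd11 start, chr8:123042238-123043094, went the other way, at 98.6, 79.6 and 87.0 for LEF1 and 48.8, 29.9 and 55.4 for TCF1. Both regions were singled out after their values were seen.

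Relatives of the 8 genes are given for context. The 8 were chosen for their region number, so that relatives have fewer follows from the choice. Each family list below includes its member of the 8, and its counts of genes without overlap between the factors stand beside 3.38% LEF1 higher and 4.87% TCF1 higher over all genes with a peak. Sgms2, the other sphingomyelin synthase, had 1 region against 48 at Sgms1, and over 22 sphingomyelin and ceramide enzymes the median was 2, with Cers6, a ceramide synthase, at 13 and Ugcg, which makes glucosylceramide, at 10. Per length the order differed: Ugcg had 18.8 regions per 100 kb, above the 16.7 of Sgms1. In this list 12 genes had a LEF1-held and 14 a TCF1-held region, and of 18 with a peak 3 had LEF1 higher without overlap and 1 TCF1 higher. Among 30 Dbl-family exchange factors the median was 3 regions, and Arhgef10 had 12, the most after Arhgef3 and Akap13. LEF1 held a region at 25 of them and TCF1 at 19, with 3 LEF1 higher and 0 TCF1 higher of 26 with a peak. Among 11 DOCK genes the median was 2, 8 had regions of each factor, and Dock2 had 17 and Dock9 had 13.

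The protein kinase C genes had a median of 13 regions over 9 genes, 7 of them with regions of each factor, and Prkcq, the isoform of T cell receptor signalling, had 30 against the 39 of Prkch. Per length Prkcq was the more densely bound, with 20.1 regions per 100 kb against 18.3. Prkcb had 18, and it was one of 2 genes with TCF1 higher without overlap among the 7 of this list with a peak. The 14 A-kinase anchoring protein genes had a median of 1, with Akap6 at 9 and Akap12 at 5, and 1 of 9 with a peak had LEF1 higher. Of the 8 genes around Ankrd11, its relatives and nuclear receptor cofactors, the median was 6.5, with Hdac4 at 26 and Ncoa2 at 11. The tRNA ribose methylation genes Wdr6 and Ftsj1 had 3 and 1. The 16 very long genes of fragile sites had a median of 1.5, with Immp2l at 13 and Fhit at 9, and 1 of 11 with a peak had TCF1 higher. The DOCK, Ankrd11 and tRNA lists had 0 in either direction. Over all protein-coding genes 52.6% had a LEF1-held and 49.8% a TCF1-held region, with a median of 1 region of any kind, and these lists differ in gene length, which was not adjusted for.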

How the data were processed

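Peak lists of 3 LEF1 and 3 TCF1 CUT&RUN libraries were used, grouped by sample title. The submitters' processing notes name build GRCm38.p6 and, with no role given, MACS3 3.0.3, Bowtie2 2.4.4, deepTools 3.5.1, FastQC 0.12.1, Trim Galore 0.6.6 and Picard. The sources used here give neither the options nor the control of the peak caller. Peaks were called per library, per the peak names in the files. The deposited fold enrichment is a ratio of signal to local background. The authors also gave each peak a p-value and a q-value as −log10, with a smallest −log10 q of 2.00 to 2.06, a whole-number score and a summit offset. Read depth is unknown.

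Peaks of all libraries on the autosomes, X and Y that overlapped by 1 bp or more were merged, and the regions were assigned to RefSeq genes with 10 kb flanks. Group differences were tested with exact permutation tests over 20 assignments, two-sided, adjusted by Benjamini-Hochberg over 13006 genes; limma 3.58.1 (R 4.3.3) on log2(peaks per 1000 + 0.05) was an alternative. Python 3.11.15 was used. On simulated data, limma over all genes recovered 0% of 100 genes with many peaks planted at 3-fold. A fit over the 187 genes with a mean of at least 10 peaks, added after seeing this, recovered 100%. The simulated counts varied by Poisson noise only, and smaller changes were not planted. Recovery of differences such as the log2 0.28 of Sgms1 was therefore not tested. Named are the 8 genes, their best region, largest cluster and longest gap, overlapping genes, up to 3 regions each of 1 factor only, and the 3 genes with the most regions in each family list. The genes, lists and tests were chosen with earlier results of these data known. Other list lengths, thresholds, flanks, merging and left-out libraries were tried.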

Additional observations from a re-analysis of the deposited data

How the results depend on the processing

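The count of 2 genes with LEF1 higher without overlap was 1 at −log10 q of at least 5 (Arhgef3), 1 with gene bodies only (Sgms1), 1 with 50 kb flanks (Sgms1), 1 by covered bases (Arhgef3) and 0 with limma over all genes (506 LEF1 higher and 214 TCF1 higher at unadjusted p under 0.05, 0 of them among the 8) or over genes with a mean of at least 10 peaks; leaving out each library gave 2 to 3. The labels number the replicates 1 to 3 in both groups. With the replicate block, 3 genes (Sgms1, Arhgef3 and Ankrd11) differed in 1 direction in all 3 pairs, as did 34.6% of 13006 genes, and the smallest p is 0.25. Same-numbered libraries correlated at -0.0263, 0.1004 and 0.2071 in their deviations over genes, so the numbers were not taken to pair them.

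The LEF1 minus TCF1 difference in peaks per 1000 stayed above 0 at Sgms1, Arhgef3 and Ankrd11 in every setting run, except that it was 0 at Ankrd11 in equal lists. It reversed elsewhere: with equal lists to 0.05836 at Prkch, 0.1167 at Akap13 and 0.2626 at Wwox; by covered bases to 0.0302, 0.1229 and 0.05719 at those genes; at −log10 q of at least 5 to 0.0008292 at Akap13, 0.0661 at Wwox and -0.01945 at Dock10; and with 50 kb flanks to 0.06005 at Akap13. Without single libraries it ranged from -0.09213 to 0.0555 at Akap13, -0.07638 to 0.05598 at Wwox, -0.01054 to 0.1055 at Dock10 and -0.1238 to 0.06917 at Thada. The cause of these reversals was not tested.

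The shared share of 69.4% was 88.29% in equal lists, 50% when a factor had to have a peak in all 3 libraries, and 40.65 to 80.1% without single libraries. Leaving out 1 TCF1 library requires a TCF1 peak in both others, and the share was then 40.65, 41.06 and 69.39%. Leaving out 1 LEF1 library likewise makes the rule stricter for the LEF1-held regions over which the share is taken. It was then 77.51, 80.1 and 71.85% without LEF1 replicates 1, 2 and 3. Regions were merged anew each time, so their number can change too. The median coefficient of variation of gaps, 1.265, was 1.009 in equal lists, 1.117 at −log10 q of at least 5, 1.203 in gene bodies, 1.071 with peaks within 500 bp merged and 1.127 to 1.277 without single libraries. The 41 clusters of at least 2 regions became 71 at 5 kb and 21 at 25 kb. Beyond these rules, the cause of the shifts was not tested.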

Other observations

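The neighbours of the 8 genes were mostly distant, so most windows hold 1 gene. Of the protein-coding neighbours, Asah2, a neutral ceramidase gene, lay 19.6 kb from Sgms1, Tasor 19.8 kb from Arhgef3, Cdh15 15.9 kb and Spg7 23.2 kb from Ankrd11, and Clec3a 11.5 kb from Wwox. Hif1a lay 123 kb from Prkch and Maf 351 kb from Wwox. Il17rd reached into the 10 kb flank of Arhgef3, and 0 of the 45 Arhgef3 regions touched it. A region within a gene body need not act on that gene, and no measurement here ties any region to a gene's expression.

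Pooled over the 8 genes, the median percentile of fold enrichment (0 is the highest) was 42.3 to 47.8 in the LEF1 lists and 35.9 to 40.6 in the TCF1 lists, against 47.8 to 49.7 and 47.3 to 48.6 in the 275 other genes. The genes differed in this: in all 3 LEF1 lists the median was above 50 at Sgms1 (50.2 to 58.7), Ankrd11 (52.1 to 61.0) and Thada (51.0 to 54.5), and it was 30.2 to 36.0 at Wwox. A peak in all 6 libraries occurred at 100 of the 313 regions, 31.9%, against 28.4% there, and a peak in 1 library only at 61, 19.5%. The median region was 406 bp wide, against 373 bp.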
